A study of Mus musculus with 8 samples.

Results

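Complement components and receptors were described in macrophages sorted from the mouse heart. The set was 9 genes of the 24516 in the deposited count table, chosen by symbol: the C1q chains C1qa, C1qb and C1qc, the components C4b and C3, properdin (Cfp), factor B (Cfb), and the receptors C3ar1 and C5ar1. All 9 were in the table, 8 had enough counts to be tested, and Cfb was listed at 0 in every library. The 8 libraries were 4 of endocardially derived cardiac macrophages (EcTM), named E591, E592, E604 and E606, and 4 of other cardiac macrophages (non-EcTM), named N591, N592, N604 and N606. Both groups came from C57BL/6 hearts at postnatal day 28 and carried the same alleles, Nfatc1Cre/+ and a Rosa26Tomato reporter/+, so every mouse had 1 copy of Nfatc1 with Cre. Nfatc1 is expressed in endocardium, and the reporter, once switched on by Cre, stays on in all descendants of the cell. No source used here gives the gates of the sort. Each number gives a pair of libraries, but what a number stands for (animal, litter or day) is not in the labels. Counts of the Y-linked gene Ddx3y were 260 in E592 and 307 in N592, against 1 to 7 in the other libraries. Whether this bears on the results was not tested. P-values measure only the spread between these libraries.

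Complement is a chain of plasma and tissue proteins that tags particles for uptake. In the classical pathway C1q, built from A, B and C chains, binds a target and activates proteases that cut C4 and then C2, and the product cuts C3. C3 fragments coat the target, the small fragments C3a and C5a act on the receptors C3ar1 and C5ar1, and properdin and factor B serve the alternative pathway that amplifies C3 cleavage. Macrophages are a main source of C1q in tissues, whereas most circulating C3 and C4 is made by the liver.

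The contrast of C1q with C4b depends on reads that belong to C4b, so the sequence of C4b was compared with that of its near-identical neighbour C4a. C4b is encoded at chr17:34728139-34743902 and C4a at chr17:34809092-34823460, both on the minus strand of GRCm38.p6 and each in 41 exons. Over 5367 aligned transcript bases they were 96.1% identical, with 207 differing bases and a longest identical run of 433 bases. Of 5330 windows of 50 bases in C4b, 1875 (35.2%) were also in C4a. A single read that lies within such a window cannot be assigned to either gene. Longer reads may reach a differing base. The window with the most differences is shown because reads there tell the genes apart. It lies at chr17:34735430-34735489 in C4b and chr17:34816086-34816145 in C4a, within 1 coding exon of each, and the capitals mark the 13 differing bases.
C4b: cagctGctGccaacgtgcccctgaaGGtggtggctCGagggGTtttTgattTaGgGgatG
C4a: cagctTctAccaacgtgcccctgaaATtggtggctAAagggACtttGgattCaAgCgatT

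The C1q genes lie side by side on the minus strand of chromosome 4. C1qb spans chr4:136880126-136886200, C1qc chr4:136889801-136892936 and C1qa chr4:136895916-136898844, and each has 3 exons. Because the 3 chains are made at similar levels, the 250 bases before the start of the RefSeq promoter entry are shown for 2 of them, chr4:136886201-136886450 for C1qb and chr4:136892915-136893164 for C1qc, 5′ to 3′ on the gene's strand. The start of the C1qc entry lies 22 bases inside the outer end of the gene span given above, and distances are counted from the start of the entry. Capitals mark the core of the site for PU.1, a transcription factor of macrophages, spelled GAGGAA, on either strand. It was found 30 to 25 bases before the start in C1qb, and on the opposite strand 193 to 188 bases before the start in C1qc.
C1qb: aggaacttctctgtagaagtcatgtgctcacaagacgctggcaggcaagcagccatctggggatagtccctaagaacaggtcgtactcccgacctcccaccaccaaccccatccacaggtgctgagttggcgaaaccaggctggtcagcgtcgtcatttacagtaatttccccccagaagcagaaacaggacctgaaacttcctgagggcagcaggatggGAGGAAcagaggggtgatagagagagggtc
C1qc: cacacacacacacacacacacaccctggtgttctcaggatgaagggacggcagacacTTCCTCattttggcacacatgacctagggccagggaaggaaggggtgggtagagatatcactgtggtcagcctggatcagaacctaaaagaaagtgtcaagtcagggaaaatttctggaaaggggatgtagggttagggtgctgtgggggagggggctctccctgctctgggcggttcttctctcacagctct
The same letters were in 23.3% of 32851 RefSeq mouse promoters of that length. In the windows of C3, C3ar1, C5ar1 and Cfp they were not found, but the C5ar1 entry starts 202 bases inside the gene span, so most of that window lies within the span. C3ar1 alone of the 6 windows examined held the letters of an interferon response element (TTTCNNTTT, in 9.37% of promoters), 210 to 202 bases before the start. It alone also held those of a TATA box (TATAAA, in 12.4%), 235 to 230 bases before the start. The MAF recognition letters (TGCTGAC, in 3.81%) and a STAT site (TTCNNNGAA, in 7.02%) were in none of the 6, and no other motif was searched. These matches are letters in a window and describe no binding.

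Library totals were 2152425 to 2937464 counts, and 7667 genes that hold 99.3% of all counts were tested. Levels are given as CPM, counts scaled with TMM factors to libraries of equal size. The 11 macrophage markers examined, among them Csf1r, Adgre1 and Mertk, were all detected, with a summed level of 21670 to 22480 CPM in EcTM and 20880 to 22080 CPM in non-EcTM. Genes with several curated RefSeq transcripts had lower counts as a class in this table. Detected genes had a median total of 151 where RefSeq lists 1 curated transcript (15967 genes in all). The median was 81 where it lists 2 (4193 genes) and 56 where it lists more (4274 genes). Of the 9 complement genes 7 have 1 curated transcript, and C5ar1 and Cfb have 2.

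The complement genes differed widely in level. C1q transcripts and C3ar1 were abundant and nearly equal in both groups. C4b and C3 were scarcer and stood lower in EcTM in all 4 number pairs. Cfp and C5ar1 were also scarcer than C3ar1, and each was lower in EcTM in 2 pairs and higher in 2. Per kilobase of transcript, the mean level in EcTM was 3368 ± 235 CPM (SD, n = 4) for C1qb, 2422 ± 145 for C1qa and 2413 ± 128 for C1qc. It was 296 ± 24.9 CPM per kilobase for C3ar1, 152 ± 13.3 for Cfp and 25.3 ± 11.1 for C4b. It was 6.89 ± 2.91 for C3 and 1.43 ± 1.38 for C5ar1. The order by mean in non-EcTM was the same, from 3303 ± 308 CPM per kilobase for C1qb to 2.06 ± 1.46 for C5ar1. C1qa and C1qc were neighbours in this order whose levels did not differ beyond their spread.

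**Figure D1:**
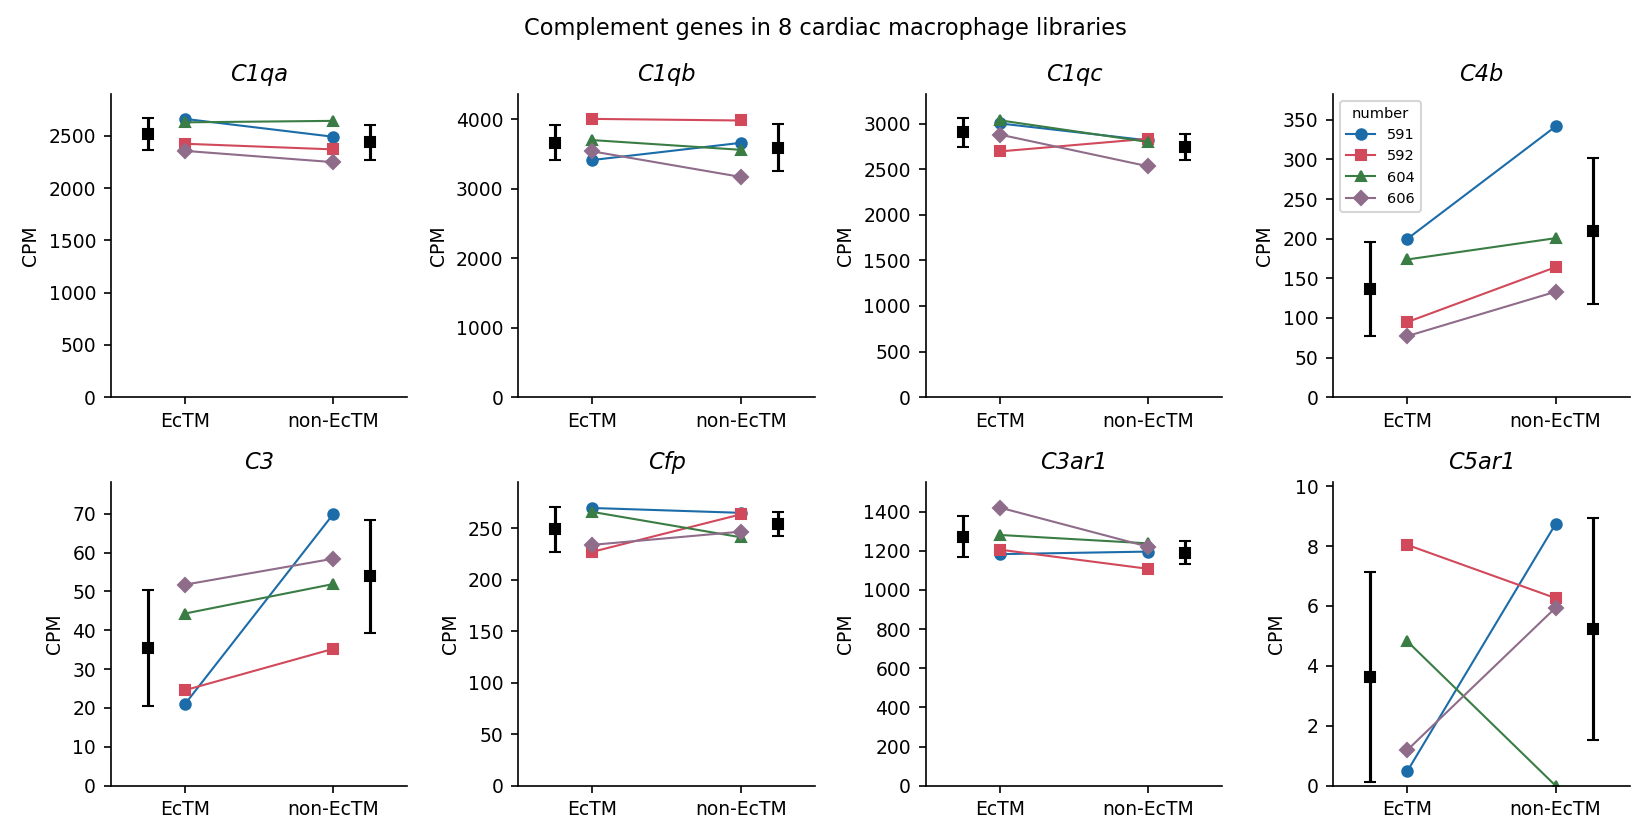
Level in CPM (linear axis from 0) of the 8 detected complement genes in each library; a line joins the EcTM and non-EcTM library of 1 number, and black squares with bars are the group mean and SD (n = 4). C1qa, C1qb, C1qc and C3ar1 vary little, C4b and C3 are higher in non-EcTM in each of the 4 pairs, and C5ar1 is at or below 8.74 CPM everywhere.

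Of the 9 genes the C1q chains had the highest levels in both groups. C1qa was at 2663, 2425, 2630 and 2357 CPM in E591, E592, E604 and E606, against 2492, 2371, 2644 and 2249 CPM in N591, N592, N604 and N606. C1qb was at 3413, 4005, 3700 and 3538 CPM in EcTM and at 3660, 3982, 3560 and 3170 CPM in non-EcTM, in the same order of numbers. C1qc was at 3001, 2694, 3035 and 2879 CPM in EcTM and at 2815, 2833, 2798 and 2531 CPM in non-EcTM. For each chain the groups overlapped, EcTM was the higher library in 3 pairs and the lower in 1, and the odd pair was that of E604 for C1qa, E591 for C1qb and E592 for C1qc.

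The groups were compared with edgeR's quasi-likelihood test with the number as a replicate block and Benjamini-Hochberg adjustment over the 7667 genes. C1qa had a log2 fold change, EcTM over non-EcTM, of 0.05 ± 0.05 (SE) with an adjusted p of 0.974, and its 95% interval ran from 0.960 to 1.11 of the non-EcTM level. For C1qb it was 0.03 ± 0.05 (adjusted p = 0.986), with an interval of 0.952 to 1.10. C1qc had 0.08 ± 0.05, with an adjusted p of 0.946 and an interval of 0.981 to 1.14. A difference in a C1q chain beyond these bounds is outside the 95% intervals of this fit, and smaller differences could not be resolved.

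The chains also kept their proportions. C1qa, C1qb and C1qc together took 0.891% ± 0.033 (SD, n = 4) of all counts in EcTM and 0.881% ± 0.042 in non-EcTM. Per kilobase, C1qb stood at 1.40 ± 0.149 of C1qa in EcTM and 1.41 ± 0.138 in non-EcTM, and it was above C1qa in each library, from 1.23 to 1.60. C1qc stood at 0.997 ± 0.042 and 0.974 ± 0.048 of C1qa. These differences between groups were smaller than the spread between libraries.

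C4b, the component cut by the C1 proteases, had the smallest p of the members. It was at 199.6 CPM (419 counts) in E591, 94.7 (212) in E592, 173.7 (396) in E604 and 77.0 (195) in E606. In non-EcTM it was at 341.5 CPM (860 counts) in N591, 164.0 (419) in N592, 200.6 (460) in N604 and 133.0 (403) in N606. EcTM was the lower library of every pair, while the groups overlapped because the numbers differed, with E591 and N591 highest and E606 and N606 lowest in their groups. Within pairs the EcTM level was 0.584 (E591 over N591), 0.578 (E592 over N592), 0.866 (E604 over N604) and 0.579 (E606 over N606) of the non-EcTM level, so the pair of E604 showed the smallest difference. In bulk RNA, fewer cells that make C4b and less C4b RNA per cell cannot be told apart.

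In the paired edgeR fit C4b had a log2 fold change of -0.64 ± 0.14 (SE), or 0.643 of the non-EcTM level with a 95% interval of 0.529 to 0.780. Its unadjusted edgeR p of 9.0e-05 was the 4th smallest of 7667 genes and the smallest of those lower in EcTM, but its adjusted p of 0.144 did not pass 0.05. No complement gene passed in that fit, where 1 gene of 7667 did (0.013%) and 414 had an unadjusted p under 0.05. With the same block, C4b passed in DESeq2 (log2 fold change -0.63 ± 0.14, adjusted p = 0.00368) as 1 of 26 called genes of 2660 (0.977%), and in limma-voom (-0.63 ± 0.14, adjusted p = 0.0151) as 1 of 19 of 7667 (0.248%). No other of the 9 genes passed in either, and the filter of DESeq2 left C3 and C5ar1 without an adjusted p. Without the replicate block the edgeR estimate was -0.62 ± 0.30, with an adjusted p of 0.998, in a fit with no gene past the threshold (0 of 7667, 0.0%), where 257 genes had an unadjusted edgeR p under 0.05.

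The call for C4b changed with the fit, while the estimate moved little among fits of all 8 libraries. It moved more with libraries left out and no block, from -0.87 without E591 to -0.28 without N591. EdgeR with the block and no filter on low counts also called it (-0.64 ± 0.14, adjusted p = 0.0121). In DESeq2 with 1 pair left out, the estimate was -0.58 ± 0.18 (adjusted p = 0.470) without the pair of E591 and -0.59 ± 0.17 (adjusted p = 0.0541) without that of E592. It was -0.59 ± 0.20 (adjusted p = 1.0) without the pair of E606. Without the pair of E604 it was -0.78 ± 0.15, and DESeq2, whose filter kept 694 genes there, gave no adjusted p. In paired edgeR the log2 fold change stayed between -0.79 (without E604 and N604, adjusted p = 0.0831) and -0.59 (without E592 and N592) when 1 pair was left out. Adding the counts of C4a to C4b gave -0.66 ± 0.14 with an adjusted p of 0.144. C4a itself was scarce, at 7.15, 0, 5.70 and 0 CPM in EcTM and 2.78, 6.65, 3.93 and 9.57 CPM in non-EcTM, with an edgeR adjusted p of 0.964. How reads shared by C4a and C4b were counted is not given in the sources used here.

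**Figure D2:**
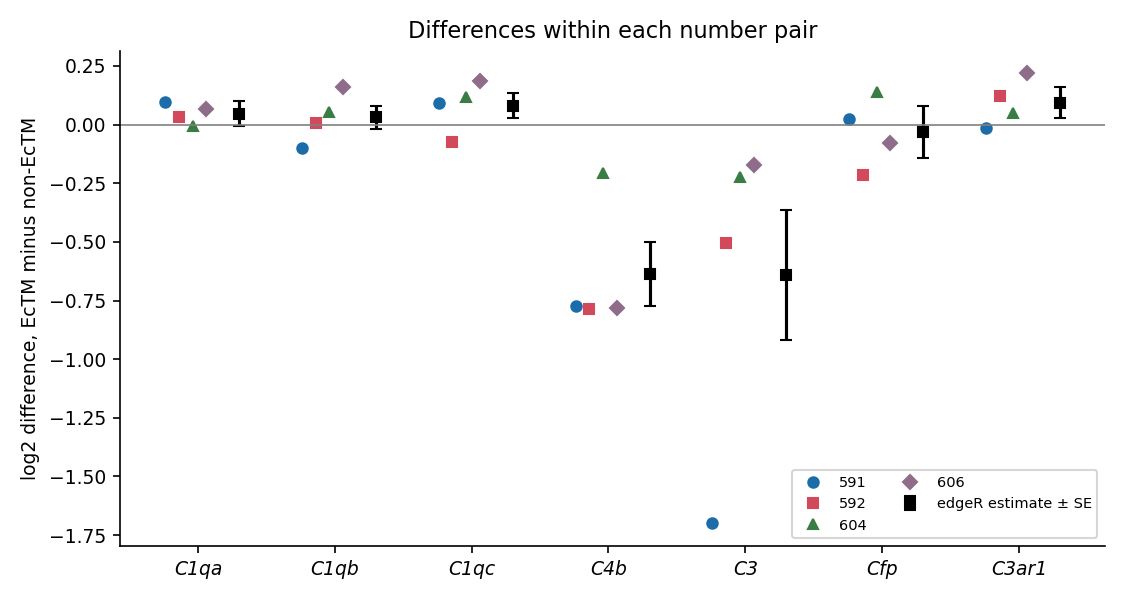
Log2 difference, EcTM minus non-EcTM, in each number pair (coloured symbols, log2 CPM with a prior count of 2) and the paired edgeR log2 fold change with its SE (black squares), for 7 complement genes. All 4 pairs lie below 0 for C4b and C3, whereas the C1q chains, Cfp and C3ar1 have pairs on both sides of 0; C5ar1, whose pairs run from -2.88 to 2.79, is not drawn.

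The contrast of C4b with C1q was measured within each library as log2 CPM of C4b minus the mean log2 CPM of the 3 chains. It was -3.91 in E591, -4.96 in E592, -4.15 in E604 and -5.21 in E606, and -3.11, -4.18, -3.88 and -4.29 in N591, N592, N604 and N606. C4b was thus lower relative to C1q in EcTM in 4 of 4 pairs, by -0.80, -0.78, -0.26 and -0.92, with a mean of -0.69 and an SD of 0.29. The group means were -4.56 ± 0.63 (SD, n = 4) and -3.87 ± 0.53, and the groups overlapped. No p is given for this score, since its genes were chosen with results of these data known.

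N591, the library with most C4b, also had the highest sums of endothelial and fibroblast markers. The 11 endothelial markers (Pecam1, Tek, Esam, Emcn and Npr3 at 0) summed to 318.2, 46.9, 25 and 221.5 CPM in EcTM, in the order E591, E592, E604, E606, and to 861.8, 80.2, 131.7 and 112.6 CPM in N591, N592, N604 and N606. The 12 fibroblast markers (Pdgfra and Postn at 0) summed to 151.5, 35.7, 51.8 and 26.5 CPM in EcTM and to 222.8, 30.9, 33.1 and 42.9 CPM in non-EcTM. E591 was the next highest in both sums and the highest EcTM library in C4b. E606, next after E591 in the endothelial sum and lowest in the fibroblast sum, was the lowest library in C4b. The endothelial sum was lower in EcTM in 3 of 4 pairs and the fibroblast sum in 2 of 4. The 4 tested endothelial markers had a median log2 fold change of -1.18 in paired edgeR, with -1.26 ± 0.41 for Kdr and -1.10 ± 0.36 for Ptprb. The 3 tested fibroblast markers had a median of 0.25, in the other direction. None of either list passed in that fit. In fits that called C4b, Ptprb passed in limma-voom (-1.24 ± 0.29, adjusted p = 0.0294), and Ptprb (adjusted p = 0.0354) and Kdr (adjusted p = 0.0130) passed in edgeR with no filter. The filter of DESeq2 left Kdr and Ptprb without an adjusted p, and with its default filter these were 0.659 for Kdr and 0.633 for Ptprb. Without E591 and N591 the paired edgeR estimate for C4b was -0.59 ± 0.16 (adjusted p = 0.823). With no block it was -0.28 ± 0.27 without N591, where its partner E591 stayed in, and -0.87 ± 0.31 without E591. The part of these cells in the C4b difference was not tested.

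Sums of other markers were small beside those of macrophages, and several moved with the groups. The macrophage sum was higher in EcTM in 4 of 4 pairs, and so was the sum of dendritic cell markers (7, with Clec9a and Ccr7 at 0), at 22.8 to 41.5 CPM in EcTM and 22.2 to 32.3 CPM in non-EcTM. The neutrophil sum (8 markers, with S100a9, Ly6g and Camp at 0) was lower in EcTM in 4 of 4 pairs, at 0 to 3.51 CPM against 3.18 to 5.61 CPM. The monocyte sum was lower in EcTM in 3 of 4 pairs, at 21.3 to 54.4 CPM against 43.2 to 99.3 CPM with N591 highest, and Ccr2 had -0.56 ± 0.24 in paired edgeR (adjusted p = 0.897). The part of these cells in the results was not tested. Mural cell markers (8, with 4 at 0: Pdgfrb, Myh11, Kcnj8 and Abcc9) summed to 47.8 to 70.0 CPM in EcTM and 41.1 to 198.2 CPM in non-EcTM, and cardiomyocyte markers (12, with 3 at 0: Tnnt2, Pln and Myh6) to 80.3 to 154.4 and 109.6 to 186.7 CPM. Hepatocyte markers (6, with 4 at 0, Alb among them) did not exceed 1.57 CPM in any library.

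**Figure D3:**
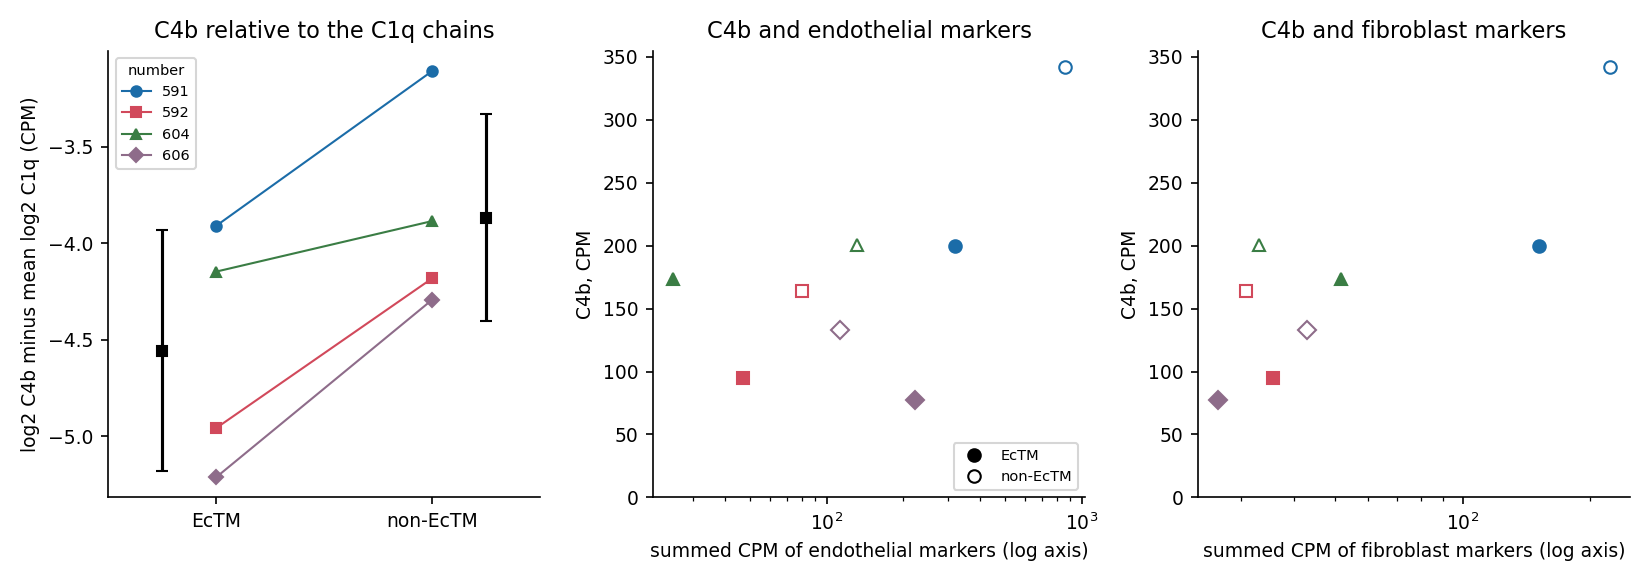
Left, log2 CPM of C4b minus the mean log2 CPM of the C1q chains, with lines joining number pairs and black squares for the mean and SD (n = 4). Middle and right, C4b in CPM (linear axis from 0) against the summed CPM of endothelial and of fibroblast markers (log axes), with filled symbols for EcTM and open ones for non-EcTM; the score is lower in EcTM in 4 of 4 pairs, and N591 is highest in C4b and in both sums.

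C3, on which all complement pathways meet, is encoded at chr17:57203967-57228136 on the minus strand in 41 exons. It was at 21.0, 24.6, 44.3 and 51.7 CPM in E591, E592, E604 and E606 (44 to 131 counts), and at 69.9, 35.2, 51.9 and 58.4 CPM in N591, N592, N604 and N606 (90 to 177 counts). EcTM was lower in 4 of 4 pairs, but by -1.70 on the log2 scale in E591 against N591 and by -0.51, -0.22 and -0.17 in the pairs of E592, E604 and E606, and the groups overlapped. N591 was the highest library in C3, as it was in C4b and in the endothelial and fibroblast sums. E591, the next highest in both sums, was the lowest library in C3. Paired edgeR gave C3 a log2 fold change of -0.64 ± 0.28 (adjusted p = 0.897), and without E591 and N591 it was -0.30 ± 0.27. C4b and C3 were the 2 of 8 tested members lower in 4 of 4 pairs, against 6.89% of all tested genes, and the 2 with an unadjusted edgeR p under 0.05 in that direction, against 2.63%. None of the 8 was higher in 4 of 4 pairs (7.24% of all tested genes), and in none were the groups free of overlap (2.7%). The median log2 fold change of the 8 was -0.00057 and that of all tested genes -0.01.

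Properdin stabilises the convertase of the alternative pathway, and its gene, Cfp, lies at chrX:20925454-20931555. Cfp was at 269.6, 227.0, 265.8 and 233.8 CPM in E591, E592, E604 and E606, and at 264.9, 263.4, 241.2 and 246.6 CPM in N591, N592, N604 and N606. EcTM was the higher library in 2 pairs and the lower in 2, with a paired edgeR log2 fold change of -0.03 ± 0.11 and an adjusted p of 0.994. Its 95% interval ran from 0.837 to 1.14 of the non-EcTM level. Cfb (chr17:34856374-34862514), which encodes the protease of the same convertase, was listed at 0 in all 8 libraries. Cfb has 2 curated transcripts and shares 2246 of its 2825 exonic bases with the readthrough gene Gm20547 on the same strand. Of all genes with 2 curated transcripts 40.6% were listed at 0, and of those with 1 it was 42.5%. These shares over all genes do not tell whether Cfb was expressed. In the pathway list below, Itgam (2 curated transcripts) was also at 0 in all 8 libraries, whereas Itgb2 (3) had 15554 counts. Whether the 0 for Cfb, or for other genes listed at 0, comes from the counting was not tested.

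The receptor C3ar1 binds the C3a fragment and lies at chr6:122847140-122856157. It was at 1183, 1206, 1281 and 1421 CPM in E591, E592, E604 and E606, and at 1196, 1108, 1238 and 1221 CPM in N591, N592, N604 and N606. EcTM was higher in 3 pairs, with the widest gap between E606 and N606, and the groups overlapped. Paired edgeR gave 0.09 ± 0.07 on the log2 scale (adjusted p = 0.962), with an interval of 0.972 to 1.17 of the non-EcTM level. Per kilobase it stood far above C3, the precursor of its ligand, with the values given above.

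C5ar1, the receptor of C5a, lies at chr7:16246743-16259540 and was the scarcest tested member. Its counts were 1 in E591, 18 in E592, 11 in E604 and 3 in E606, and 22, 16, 0 and 18 in N591, N592, N604 and N606. E592 and E604 were above their partners and E591 and E606 below, and paired edgeR gave -0.58 ± 1.24 on the log2 scale (adjusted p = 0.990). The interval, from 0.114 to 3.96 of the non-EcTM level, spans large differences in both directions. C5ar1 has 2 curated transcripts, and its total of 89 counts lies near the median of 81 for detected genes of that class. Whether its scarcity comes from the counting was not tested.

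The rest of the pathway was taken from a list of 57 genes, the 9 members included. Of these, 19 were listed at 0 in all libraries (13 with several curated transcripts) and 23 were tested. None of the 23 passed in paired edgeR. Unadjusted edgeR p-values were under 0.05 for 3 genes lower in EcTM (C4b, C3 and Fcna) and for 0 higher. Of all 7667 tested genes it was 202 lower (2.63%) and 212 higher. Estimates were below 0 for 11 genes and above 0 for 12, with a median log2 fold change of 0.0058 against -0.01 over all tested genes. Lower in 4 of 4 pairs were C4b, C3, Fcna and Colec12 (6.89% of all tested genes), and higher in 4 of 4 was none (7.24%). C4b and C3 are members counted above. Of the 15 tested genes that are no member, 1 had an unadjusted edgeR p under 0.05 and 2 were lower in 4 of 4 pairs.

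In the grouping of the list, 4 of 7 tested estimates were below 0 among classical pathway genes. Among genes grouped as receptors, with Cr1l, Calr and C1qbp included, it was 2 of 11. Ficolin A (Fcna), a pattern receptor that starts the lectin pathway, was at 68.6, 101.4, 104.4 and 125.6 CPM in E591, E592, E604 and E606, and at 119.1, 135.4, 143.5 and 140.9 CPM in N591, N592, N604 and N606. Paired edgeR gave -0.45 ± 0.16 on the log2 scale (adjusted p = 0.751). Colec12, a scavenger receptor with a collectin domain, had -0.20 ± 0.10 in the same fit. For others named by smallest p the estimates were 0.46 ± 0.32 for Cr1l, -1.41 ± 1.04 for C5ar2 and 0.67 ± 0.50 for Itgax, all with several curated transcripts. C2, cut after C4 in the classical pathway, had -0.43 ± 0.46 with single libraries from 5.24 CPM in E591 to 65.8 CPM in E604.

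**Figure D4:**
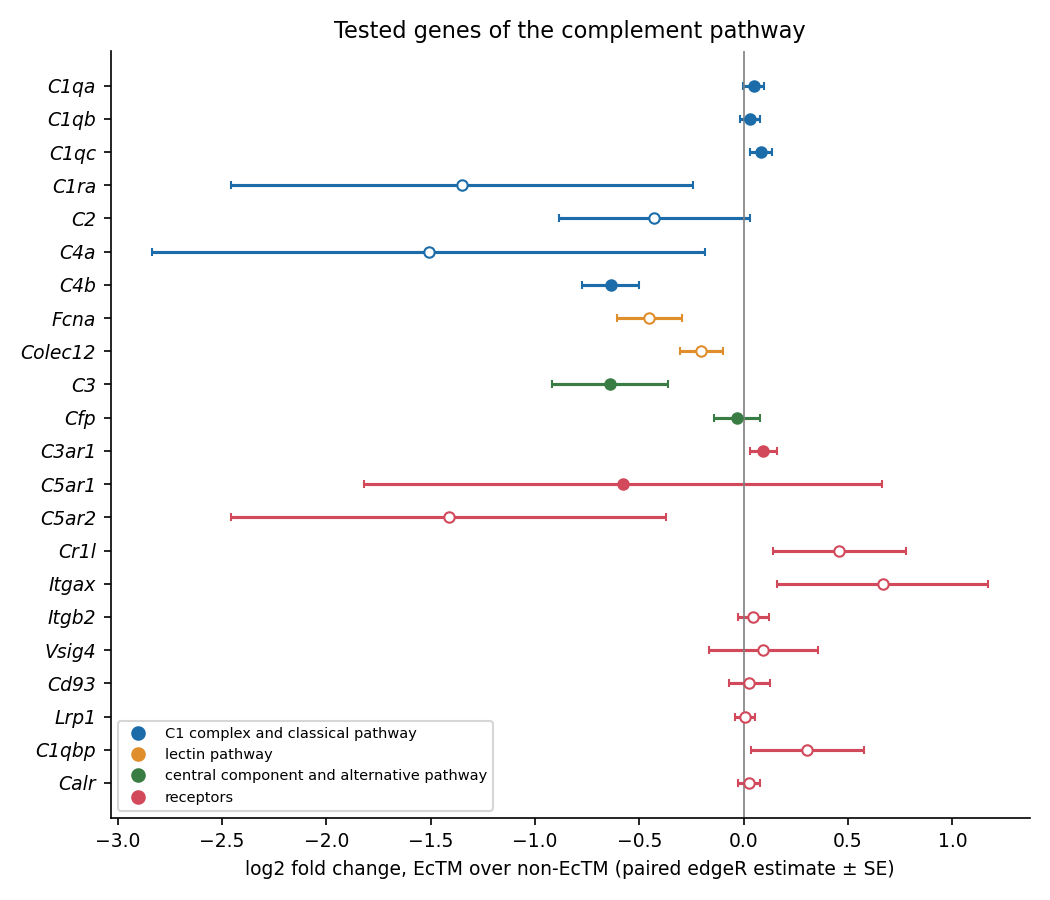
Paired edgeR log2 fold change, EcTM over non-EcTM, with its SE for the tested genes of the complement pathway list that are reported here, coloured by role; filled symbols are the 8 tested members. None passed the adjusted threshold, the C1q chains and C3ar1 lie near 0, and the widest bars belong to scarce genes such as C4a and C5ar1.

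The neighbourhoods of the loci were also examined. Within 200 kilobases of C4b the table holds 27 other genes, of which 12 were tested, C4a and C2 among them. In EcTM 2 of these were lower in 4 of 4 pairs (6.89% of all tested genes) and 1 higher (7.24%). The median log2 fold change was -0.23, against -0.01 over all tested genes, with a range from -1.73 (Notch4) to 1.42 (Zbtb12). The smallest unadjusted edgeR p there was 0.036, for Notch4. Around the C1q genes 1 of 3 other genes was tested, Zbtb40, at 0.19.

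The genes whose levels followed C1q or C4b most closely over the 8 libraries are given as a description. With the mean log2 CPM of the C1q chains, Pearson's r was 0.936 for B4galt1, 0.920 for Apex1, 0.913 for Trappc8, 0.883 for Rnf31 and 0.872 for Ier5. With C4b it was 0.973 for Mrpl52, 0.969 for Prkrir, 0.912 for Arsk, 0.905 for Ddit4 and 0.889 for Cep164. These are the 5 highest of 3800 genes in each case, and the libraries share numbers and scaling. The 99th percentile of r over these genes was 0.752 with the C1q mean and 0.81 with C4b. After the mean of each number was removed, r was 0.737 to 0.980 for the first 5 and 0.758 to 0.985 for the second. These values rest on the differences within pairs alone. Among the members, r over the 8 libraries was 0.73 for C1qa with C1qc, 0.11 for C1qa with C1qb and 0.25 for C4b with C3. The highest among members was 0.75, for C4b with Cfp, which is below the 99th percentile given for C4b. C4b had 0.51 with C1qa, -0.06 with C1qb and 0.24 with C1qc.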

How the data were processed

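RNA of the sorted cells was extracted with the QIAGEN RNeasy plus micro kit and made into stranded libraries with a Clontech SMARTer Pico kit, per the labels' protocols. Reads were handled with bcl2fastq 2.17, TopHat, mm10, DESeq2 and R 3.2, per the submitters' processing notes; how reads were counted, with which annotation and strand, is not given in the sources used here. Per gene, the authors deposited raw counts and log2 values for 24516 genes. The deposited log2 values matched a regularised log of the counts to within 0.00881 with number and group in the design, and to within 0.139 with group alone, and only counts were tested here.

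Of the rows 24447 matched RefSeq GRCm38.p6. Genes kept by filterByExpr (7667) were fitted with edgeR 4.0.16 (TMM, quasi-likelihood F-test, number and group) in R 4.3.3, with a threshold of 0.05, a prior count of 2 and a biological coefficient of variation of 0.304. DESeq2 1.42.0 (filter set for 0.05) and limma 3.58.1 voom were run beside it. Same-numbered libraries correlated across genes after removal of group means at 0.12 to 0.19 (4 pairs), others at -0.13 to 0.05, so the number was used as a block. Alternatives changed the tool, scaling, filter, block, transcript class and libraries. Intervals assume the spread estimated by edgeR. Promoters came from RefSeq (GRCm38.p6) and matched 6 members, not C1qa, C4b and Cfb. Plots used matplotlib 3.10.9 (Python 3.11.15). Members and gene lists were chosen with earlier results of these data known. Named were all members, C4a, C2, up to 6 other tested pathway genes with the smallest p, and the 5 genes most like C1q and C4b among genes whose mean log2 CPM is 5 or more. C2 and genes of the C4b neighbourhood were added after their values were seen. Some results of the pathway and marker lists are not reported here.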

Additional observations from a re-analysis of the deposited data

Results flagged for a closer look

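C1qc in N606 stood apart from the other non-EcTM libraries, at 2531 CPM against 2798 to 2833 CPM. It was 1 of 18 groups of 4 libraries examined for such a gap, and chance alone gives about 1 in 20 groups. The C1qc log2 fold change without E606 and N606 was 0.04 (paired edgeR) against 0.08 with it, and C1qc passed in neither.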

How the results depend on the processing

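Paired edgeR called 1 gene of all tested. The count was 0 without the replicate block, 26 in DESeq2, 17 in DESeq2 with its default filter (chosen after seeing the data), 19 in limma-voom, 10 with no filter on low counts and 0 among genes with 1 curated transcript. Leaving out 1 pair gave 1 to 2 genes in paired edgeR and 0 to 26 in DESeq2 (chosen after seeing the data; 13 without E592 and N592, 26 without E604 and N604 at 694 genes tested), and leaving out 1 library with no block gave 0 to 1. C4b kept its direction in 26 alternatives, from -0.87 to -0.28 on the log2 scale. It passed in 4 of them, at -0.63 in DESeq2 under both filters (adjusted p = 0.00368 and 0.00479), -0.63 in limma-voom and -0.64 with no filter (adjusted p = 0.0121), and in the other 21 with an adjusted p the lowest was 0.0541. C4b relative to C1q was -0.83 to -0.61 in 10 alternatives. C3, C1qa, C1qc and C3ar1 kept their directions in 25 alternatives each and never passed. Leaving out pairs or libraries turned 3 members. C1qb ran from -0.018 to 0.075 over pairs left out in edgeR, from -0.027 to 0.086 over libraries left out with no block (-0.014 without E592) and from -0.013 to 0.082 over pairs in DESeq2. C5ar1 ran from -1.76 to 0.42 (0.15 without E606 and N606) and from -1.83 to 0.57 (0.34), in edgeR and DESeq2. Cfp ran from -0.090 to 0.032, from -0.066 to 0.016 with no block and from -0.081 to 0.031 in DESeq2. The cause was not tested. With the number as a replicate block C4b had an SE of 0.14 in edgeR, and 0.30 with no block. C4b passed in neither of these fits, and no other member did. DESeq2 and limma-voom were run only with the block. C5ar1 and C4a had at most 29 counts in any library, and their SEs were 1.24 and 1.32.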
